A study of Mus musculus with 8 samples.

Results

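The data are the levels of all genes in 1 mouse tumour organoid line, SNU-6621, set against those in 3 other lines of the same study, SNU-6622, SNU-6624 and SNU-6625. Each line is represented by 1 untreated (control) RNA-seq library of parental, wild-type organoids, which the labels describe as hepatocellular carcinoma that arose with metabolic dysfunction-associated steatohepatitis (MASH). The comparison therefore holds 4 of the 8 libraries of the series. The remaining 4 are a lenvatinib-resistant and a lenvatinib-treated library of each of SNU-6624 and SNU-6625, and serve here only to show where a gene of SNU-6621 stands among all 8. Lenvatinib is a multikinase inhibitor used against liver cancer, whose dose and duration the labels do not give. Both resistant libraries are labelled as control for treatment. SNU-6621 was chosen by the CPM values of these same 4 libraries, in which it lay apart from the other lines, and its genes were selected on the same values, and no p-value is attached to any of them. With 1 library against 3, an exact permutation test could not go below p = 0.25 one-sided in any case. The labels name neither the animal, sex, passage nor culture batch behind a line, and what belongs to the line cannot be told apart from what belongs to its single library.

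Hepatocellular carcinoma is the usual primary cancer of the liver parenchyma, and MASH, in which fat-laden hepatocytes are accompanied by inflammation and scarring, is one of its causes. Organoids are grown in a gel of basement membrane proteins from the epithelial cells of a tissue, so that stroma, vessels and immune cells are usually lost. Tumours that arise in different animals carry different mutations and can take on different epithelial identities, and organoid lines made from them are known to keep such differences.

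Levels are CPM, the deposited counts scaled to the size of each library. Values of the other lines are written for SNU-6622, SNU-6624 and SNU-6625 in that order. Of 45777 genes in the files, 10504 reached 10 CPM in at least 1 parental library. SNU-6621 was above each of the other lines in 3750 of these genes (35.7%) and below each of them in 3910 (37.2%), so that 7660 genes lay outside the range of the other 3. A gene is called far above when SNU-6621 had at least 10 CPM and at least 4 times the highest of the other lines, and far below when each of the other lines had at least 10 CPM and at least 4 times the level in SNU-6621. By that measure 271 genes were far above (2.58%) and 111 far below (1.06%). The same count gave 71 genes far above and 5 far below in SNU-6622, 6 and 11 in SNU-6624, and 20 and 11 in SNU-6625. Protein-coding genes made up 258 of the 271 and 105 of the 111.

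**Figure D1:**
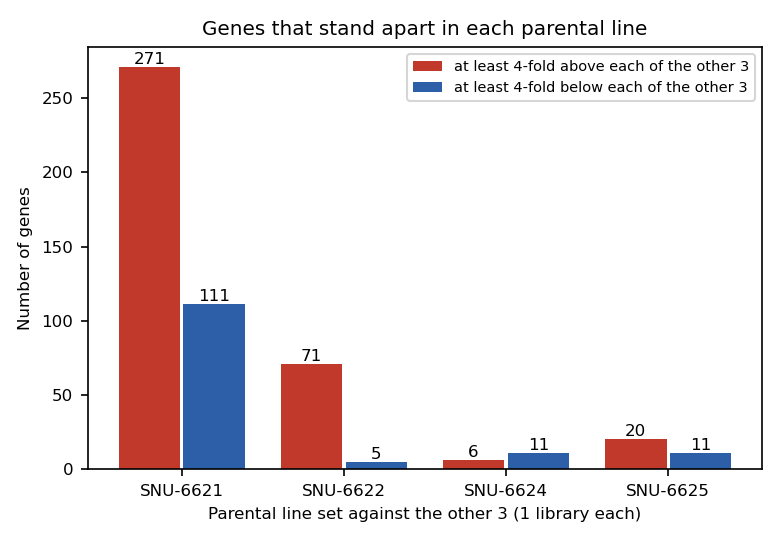
Number of genes at least 4-fold above (left bars) or below (right bars) all 3 other parental libraries, counted for each of the 4 parental lines in turn, 1 library per line. SNU-6621 has 271 genes above and 111 below, against 71 and 5 in SNU-6622, 6 and 11 in SNU-6624, and 20 and 11 in SNU-6625.

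**Figure D2:**
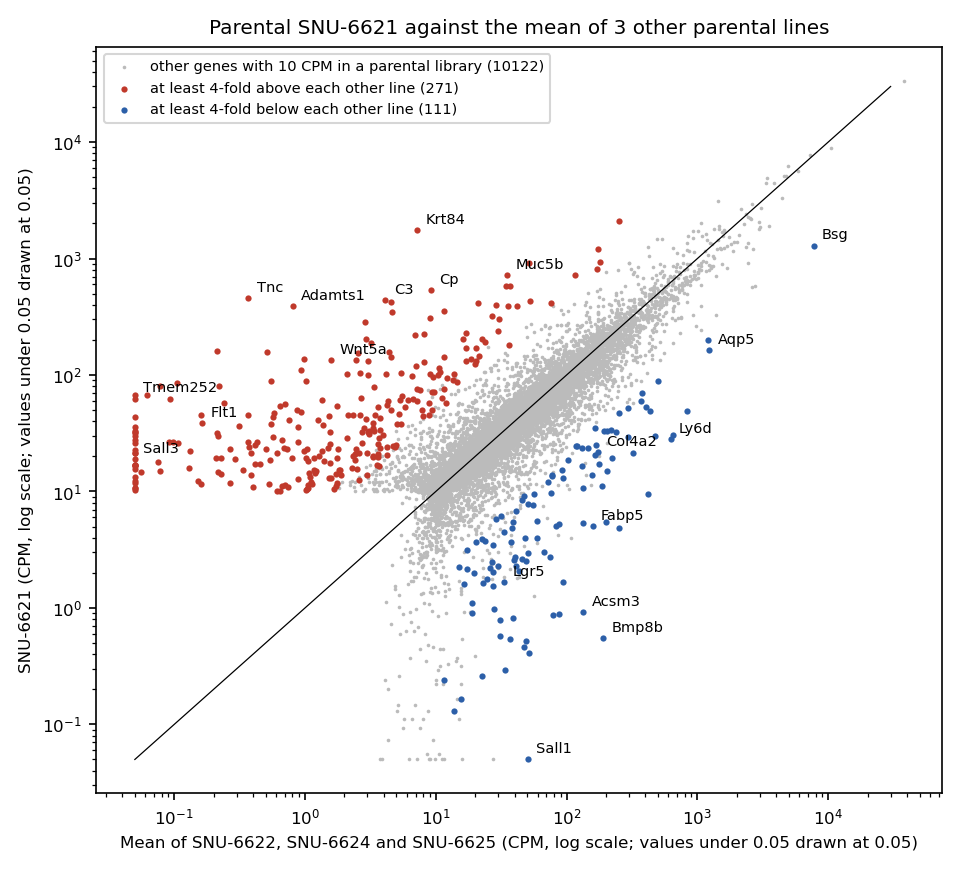
Level of each of 10504 genes in SNU-6621 (vertical, CPM, log axis) against the mean of SNU-6622, SNU-6624 and SNU-6625 (horizontal, CPM, log axis), 1 point per gene. The 271 genes far above are red, the 111 far below blue and the rest grey, and several of the red genes lie at the left edge because they had no counts in the other lines.

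The depth was similar in the 4 parental libraries, with 52.3 M (mega) counts in SNU-6621 against 58.5, 60.4 and 49 M in the other lines. The drug libraries had 50.5 to 61 M counts. A count of 3 in a parental library, used as a floor for fold changes, corresponds to 0.0505 to 0.0606 CPM and covers counting error only. Genes of the Y chromosome followed the line labels of the drug libraries. Ddx3y, an RNA helicase gene of the Y, had 67.1 CPM in SNU-6621, against 11.7, 132 and 0 CPM in the other lines, and 0 CPM in both drug libraries of SNU-6625, while those of SNU-6624 had 109.7 CPM (lenvatinib) and 82.7 CPM (resistant). Kdm5d, Uty and Eif2s3y had the same order over the lines, with SNU-6621 between SNU-6622 and SNU-6624 in each of them.

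The promoters of 6 genes far from the other lines are shown first. Tmem252 and Tnc lie furthest above and Sall1 and Bmp8b furthest below, and Adamts1 and Krt84 were picked after their values were seen, as a protease and a keratin described below. Each is the 250 bases before the transcript start in RefSeq's table of GRCm38.p6, the most upstream one where the table lists several, written 5′ to 3′ on the strand of the gene, with the letters TATAAA (or their reverse complement) in capitals. Tmem252, Tnc, Adamts1 and Krt84 were far above, and Sall1 and Bmp8b far below. The window of Bmp8b lies within the annotated gene at chr4:123104308-123126094, and the other 5 windows end where the annotated gene begins.
Tmem252, chr19:24673758-24674007, plus strand: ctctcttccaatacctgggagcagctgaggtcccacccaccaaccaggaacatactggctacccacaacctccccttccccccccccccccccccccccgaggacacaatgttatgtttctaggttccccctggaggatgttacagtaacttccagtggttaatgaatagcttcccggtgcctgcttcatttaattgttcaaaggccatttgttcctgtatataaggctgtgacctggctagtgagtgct
Tnc, chr4:64047016-64047265, minus strand: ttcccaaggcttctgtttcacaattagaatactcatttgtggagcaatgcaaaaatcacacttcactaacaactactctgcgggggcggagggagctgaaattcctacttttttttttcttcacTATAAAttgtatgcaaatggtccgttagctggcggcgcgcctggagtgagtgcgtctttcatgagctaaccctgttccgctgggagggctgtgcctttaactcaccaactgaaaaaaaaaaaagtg
Adamts1, chr16:85803114-85803363, minus strand: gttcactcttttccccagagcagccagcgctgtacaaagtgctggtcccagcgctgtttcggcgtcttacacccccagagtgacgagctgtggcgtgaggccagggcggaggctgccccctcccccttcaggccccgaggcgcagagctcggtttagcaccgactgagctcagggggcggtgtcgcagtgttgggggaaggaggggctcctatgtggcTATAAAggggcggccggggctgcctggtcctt
Krt84, chr15:101532821-101533070, minus strand: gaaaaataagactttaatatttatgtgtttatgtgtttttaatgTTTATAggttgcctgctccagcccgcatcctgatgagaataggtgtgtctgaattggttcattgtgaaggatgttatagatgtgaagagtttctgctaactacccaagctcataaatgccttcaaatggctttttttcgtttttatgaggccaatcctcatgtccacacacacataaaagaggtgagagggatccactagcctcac
Sall1, chr8:89044163-89044412, minus strand: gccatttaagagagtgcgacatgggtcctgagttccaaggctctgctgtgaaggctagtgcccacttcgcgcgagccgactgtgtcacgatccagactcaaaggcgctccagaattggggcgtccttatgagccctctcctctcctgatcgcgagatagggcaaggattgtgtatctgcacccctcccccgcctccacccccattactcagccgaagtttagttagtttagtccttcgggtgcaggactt
Bmp8b, chr4:123104911-123105160, plus strand: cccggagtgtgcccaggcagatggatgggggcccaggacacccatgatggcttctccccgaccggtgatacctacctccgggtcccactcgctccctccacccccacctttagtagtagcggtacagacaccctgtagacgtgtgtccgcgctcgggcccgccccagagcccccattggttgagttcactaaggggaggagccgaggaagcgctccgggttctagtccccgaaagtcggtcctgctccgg

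The window of Adamts1 held TATAAA on its own strand, ending 26 bases before the start, and that of Tnc held it 120 bases before. In Krt84 the match was on the opposite strand, and the windows of Tmem252, Sall1 and Bmp8b held none. CG dinucleotides numbered 17 in Bmp8b, 15 in Adamts1, 13 in Sall1, 8 in Tnc and 2 each in Krt84 and Tmem252. Windows were found for 198 of the 271 genes far above, 85 of the 111 far below and 8268 of the 10504 genes. The median number of CG dinucleotides was 10.5 in genes far above and 9 in genes far below, against 16 over all these genes. TATAAA, searched on both strands, was in 13.1% of windows of genes far above and 9.41% of those far below, against 6.24% of all. The AP-1 motif TGANTCA was in 9.09% of windows of genes far above and 5.88% of those far below, against 4.58% of all. For the NF-kB motif the share was 3.54% in genes far above and 2.35% in genes far below, against 4.68% of all. The TEAD motif GGAATG was in 13.1% of windows of genes far above and 12.9% of those far below, against 10.3% of all. These are counts of letters and not of occupied sites.

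The genes furthest above were nearly or wholly silent in the other lines. Tmem252, which encodes a transmembrane protein, had 62.6 CPM in SNU-6621 and no count in any of the other 3 lines, at least 1034-fold higher at the floor of 3 counts per library. Tnc encodes tenascin C, an extracellular matrix glycoprotein of wound edges and tumour stroma, and lies at chr4:63959785-64047015 (gene identifier 21923). It had 459.9 CPM in SNU-6621, against 0.210, 0.555 and 0.343 CPM in the other lines, an 828-fold distance to the nearest line. Adamts1, a secreted metalloprotease that cleaves the proteoglycans versican and aggrecan, had 389.7 CPM in SNU-6621, against 0.612, 1.36 and 0.444 CPM in the other lines.

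Krt84, a keratin of hair and nail in its textbook setting, had 1753 CPM in SNU-6621, against 20.1, 1.03 and 0.424 CPM in the other lines. Mill1, a class I-like molecule related to the histocompatibility family, had 161 CPM in SNU-6621, against 0.402, 0.151 and 0.0808 CPM in the other lines. Cdh16 encodes kidney-specific cadherin and had 32.7 CPM in SNU-6621 and 0 CPM in each other line. Pdpn, podoplanin, a surface glycoprotein of lymphatic endothelium, podocytes and invading tumour edges, had 31.5 CPM in SNU-6621 and 0 CPM in each other line. That SNU-6621 was the single high parental library for each of these genes follows from the rule that chose them.

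The rest of the 15 furthest above, provisional symbols left out, were Csdc2, Pla2g7, Dclk3, ccdc198, Gxylt2, Fam49a, Sncg, Slc15a2, Slc34a2 and Kif12. Among them Sncg, gamma-synuclein, had 85.2 CPM in SNU-6621, against 0.192, 0 and 0.121 CPM in the other lines. Pla2g7, the phospholipase that hydrolyses platelet-activating factor, had 35.8 CPM in SNU-6621, against 0, 0 and 0.0606 CPM in the other lines. Altogether 21 genes had at least 10 CPM in SNU-6621 and at most 3 counts in each of the other parental lines, and 16 of them had at most 3 counts in all 7 other libraries.

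On the other side, Sall1 was the only gene with at least 10 CPM in each other line and at most 3 counts in SNU-6621. It encodes a spalt-family zinc finger factor that in the embryo is needed for the kidney, and lies at chr8:89027242-89044162. Sall1 had 0 CPM in SNU-6621, against 63.5, 61.9 and 26.9 CPM in the other lines, at least 486-fold lower at the floor of 3 counts. Its paralog Sall3 had the opposite pattern, with 19.1 CPM in SNU-6621 and 0 CPM in each other line. Bmp8b, a secreted ligand of the bone morphogenetic protein family, had 0.554 CPM in SNU-6621, against 163, 168 and 243 CPM in the other lines.

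Several of the genes furthest below are enzymes. Acsm3, a mitochondrial medium-chain acyl-CoA synthetase, had 0.924 CPM in SNU-6621, against 167, 105 and 131 CPM in the other lines. Acacb, the acetyl-CoA carboxylase whose product malonyl-CoA restrains fatty acid entry into mitochondria, had 0.869 CPM in SNU-6621, against 69, 85.9 and 81.5 CPM in the other lines. Hpgd, which inactivates prostaglandins, had 0.129 CPM in SNU-6621, against 13.5, 12.1 and 15.9 CPM in the other lines. Bcat2, the mitochondrial branched-chain aminotransferase, had 0.536 CPM in SNU-6621, against 37.8, 42.1 and 31.8 CPM in the other lines. Among the parental lines SNU-6621 was the single low one for each, as the rule that chose them requires. In the drug libraries Hpgd had 9.96 and 1.43 CPM in resistant SNU-6624 and SNU-6625, and 0.593 and 2.77 CPM in lenvatinib SNU-6624 and SNU-6625. Acsm3 had 97.7 and 7.95 CPM in the resistant libraries and 10.9 and 10.5 CPM in the lenvatinib libraries, in the same order of lines, so low levels of these enzymes were also found outside SNU-6621.

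Aim2, a cytoplasmic sensor of double-stranded DNA, had 0.407 CPM in SNU-6621, against 66.5, 18.4 and 70.4 CPM in the other lines. Tm4sf1, a tetraspanin-like surface protein, had 0.887 CPM in SNU-6621, against 132, 46.8 and 84.9 CPM in the other lines. Mgat4c, an N-acetylglucosaminyltransferase-like gene, had 4.88 CPM in SNU-6621, against 230.5, 261 and 261 CPM in the other lines, with the 3 other lines close together at 251 ± 17.7 CPM (mean ± SD, n = 3). The rest of the 15 furthest below were Glipr1, Lxn, Krtcap3, Gna14, Alppl2 and Pde4c. Genes well above the limit in all lines could also differ far, and were picked for their level after the values were seen. Bsg, the surface glycoprotein basigin that chaperones lactate transporters, had 1288 CPM in SNU-6621, against 8257, 7766 and 7243 CPM in the other lines, and Aqp5, a water channel of secretory epithelium, had 163 CPM in SNU-6621, against 1148, 1387 and 1166 CPM in the other lines. Srd5a1, a steroid 5-alpha reductase, had 577 CPM in SNU-6621, against 28.3, 34.5 and 40.8 CPM in the other lines.

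**Figure D3:**
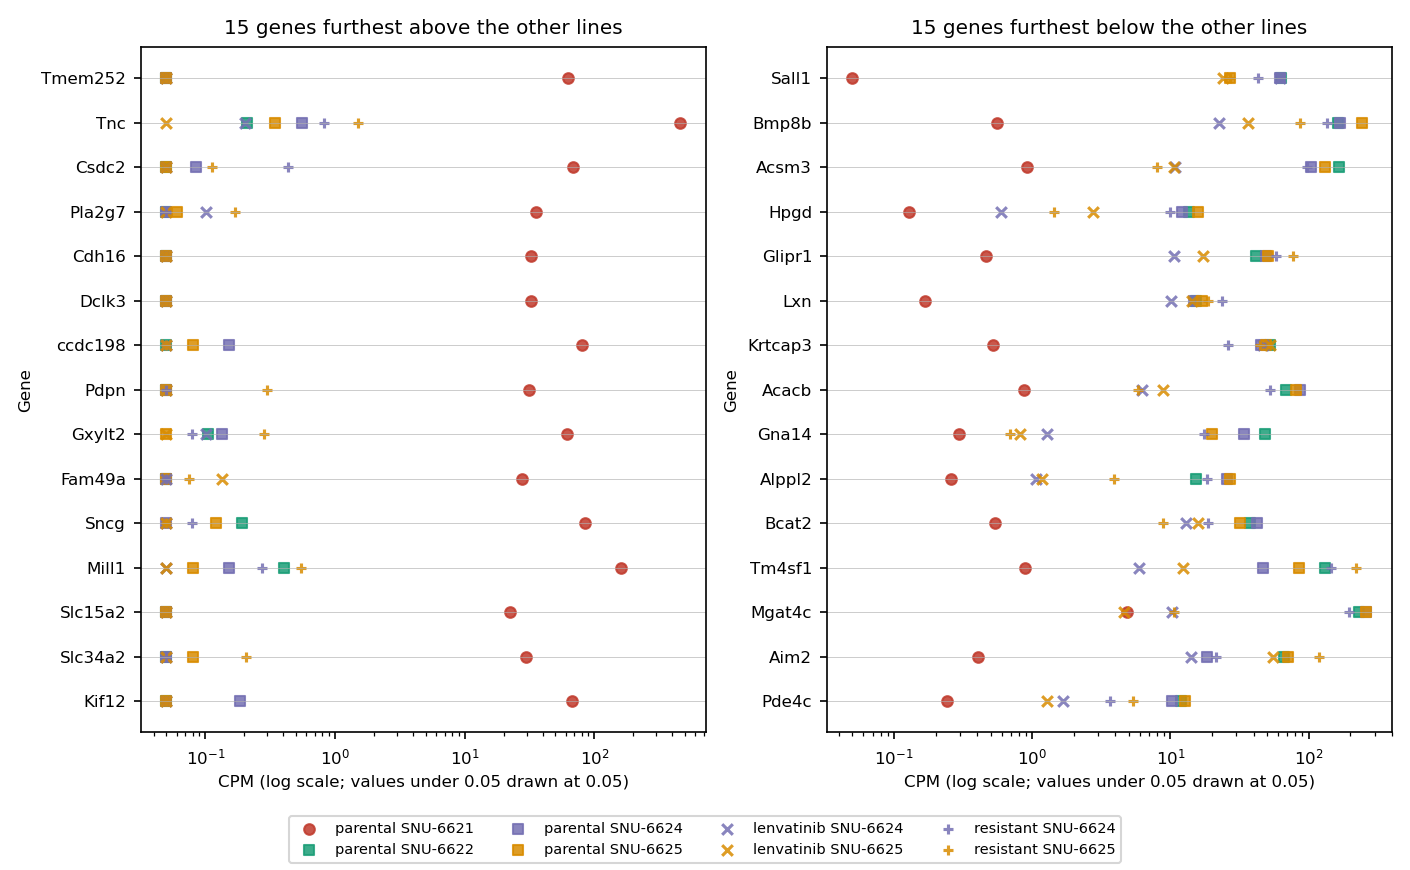
Level (CPM, log axis) of the 15 genes furthest above (left) and the 15 furthest below (right) in SNU-6621, with all 8 libraries as points, 1 per library, and provisional symbols left out. SNU-6621 stands alone at the high end of each gene in the left panel and at the low end of each gene in the right panel among the parental lines, from Tmem252 at 62.6 CPM to Sall1 at 0 CPM. The genes were chosen for this position.

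At the 4-fold limit the values grade into the rest. Just inside were Ecm1, an extracellular matrix protein, with 811 CPM in SNU-6621, against 148, 203 and 159 CPM in the other lines, and Cyp4b1, a P450 enzyme of lung and bladder epithelium, with 50.5 CPM in SNU-6621, against 12.6, 5.1 and 6.02 CPM in the other lines. Just outside were Capsl, with 11.4 CPM in SNU-6621, against 2.87, 2.66 and 2.52 CPM in the other lines, and Fut9, a fucosyltransferase, with 64.5 CPM in SNU-6621, against 16.4, 7.34 and 4.46 CPM in the other lines. In the other direction Tc2n and Slc1a4, an amino acid transporter, were just inside, the first with 35.3 CPM in SNU-6621, against 143, 173 and 177 CPM in the other lines and Slc1a4 with 59.8 CPM in SNU-6621, against 242, 349.6 and 524 CPM in the other lines. Atp6v1b1, a proton pump subunit of intercalated cells, and Lipa, the lysosomal acid lipase, were just outside, Atp6v1b1 with 2.98 CPM in SNU-6621, against 11.7, 59.3 and 40.1 CPM in the other lines and Lipa with 18.7 CPM in SNU-6621, against 101, 77.5 and 73.2 CPM in the other lines.

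The epithelial identity of the 4 lines was measured with marker lists. Of 25 biliary and progenitor markers 22 were among the 10504 genes, 11 above (50%) and 6 below (27.3%) in SNU-6621, against 35.7% and 37.2% of all genes. Their median log2 ratio to the mean of the other lines was 0.27, against -0.02 over all genes. Cytokeratins of bile duct epithelium were high in all lines. In bulk RNA a smaller number of cells of a type and less RNA per cell cannot be told apart. Krt7 had 2414 CPM in SNU-6621, against 2723, 2361 and 2018 CPM in the other lines, and Krt19 had 2697 CPM in SNU-6621, against 3254, 2957 and 3047 CPM in the other lines. Sox9, a transcription factor of bile duct and progenitor cells, had 4.16 CPM in SNU-6621, against 11, 32.9 and 45.3 CPM in the other lines. Spp1, the secreted phosphoprotein osteopontin, was far above, with 129 CPM in SNU-6621, against 9.75, 3.55 and 11 CPM in the other lines.

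Of 42 mature hepatocyte genes 9 reached 10 CPM in a parental library, and 13 had at most 3 counts in all 8 libraries. Of the 9, 4 were above (44.4%) and 3 below (33.3%) in SNU-6621, against 35.7% and 37.2% of all genes. Only through SNU-6621 was 1 of the 9 tested. The labels call the organoids hepatocellular carcinoma, and Alb and Cps1, which mark differentiated hepatocytes, had no count in any of the 4 parental lines. Of 20 fetal liver and liver carcinoma genes 8 were tested, with 4 above, 2 of them far, and 3 below, 1 of them far, and the list summed to 2177 CPM in SNU-6621, against 2951 to 4226 CPM in the other lines. Afp and Gpc3, markers of hepatocellular carcinoma, were at 0 and 0.0370 CPM in SNU-6621, with no line above 0.121 CPM. Hnf4a, the nuclear receptor that governs hepatocyte and intestinal genes, had 87.9 CPM in SNU-6621, against 132, 92.5 and 147 CPM in the other lines. Cyp2e1, the P450 enzyme that oxidises ethanol in hepatocytes, had 43.8 CPM in SNU-6621, against 0, 0 and 0.121 CPM in the other lines. Cebpa, a hepatocyte and myeloid transcription factor, had 107 CPM in SNU-6621, against 32.8, 24.3 and 14.1 CPM in the other lines, and Ass1, of the urea cycle, had 69.4 CPM in SNU-6621, against 19.2, 24 and 18.6 CPM in the other lines.

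Intestinal genes were spread widely over the lines. Of 16 tested members 2 were above (12.5%) and 6 below (37.5%) in SNU-6621, against 35.7% and 37.2% of all genes. The median log2 ratio was -1.08 against SNU-6622 and -1.58 against SNU-6625, but 0.81 against SNU-6624. Vil1, the microvillus protein villin, had 80.8 CPM in SNU-6621, against 274, 214 and 354 CPM in the other lines. Muc13, a transmembrane mucin, had 243 CPM in SNU-6621, against 1860.2, 454 and 858 CPM in the other lines. Gpa33, an adhesion molecule of gut epithelium, had 72.3 CPM in SNU-6621, against 339, 159 and 249.1 CPM in the other lines. These 3 genes were lower in SNU-6621 than in each other line.

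Genes of basal and squamous epithelium were mixed. Of 23 tested members 11 were above (47.8%) and 8 below (34.8%), against 35.7% and 37.2% of all genes. Of the 23, 1 was tested only through SNU-6621. Trp63, the transcription factor of basal cells, had 75 CPM in SNU-6621, against 8.09, 13 and 1.47 CPM in the other lines. Krt5, a basal keratin, had 155 CPM in SNU-6621, against 0.664, 5.77 and 1.21 CPM in the other lines. Ly6d, a surface protein of squamous and progenitor cells, went the other way with 28.3 CPM in SNU-6621, against 688, 623 and 561 CPM in the other lines. Sprr2a1, a cornified envelope protein, had 566 CPM in SNU-6621, against 2160.4, 3565 and 2104 CPM in the other lines.

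The Ly6 family of small surface proteins, grouped here once the values were known, had 4 of 12 tested members far below and none far above. Ly6c1 had 49.2 CPM in SNU-6621, against 1078, 618 and 792 CPM in the other lines, Ly6m had 1.66 CPM in SNU-6621, against 82.3, 68.3 and 129.8 CPM in the other lines, and Ly6c2 had 2.61 CPM in SNU-6621, against 55.5, 33.4 and 46.9 CPM in the other lines. Ly6c1 and Ly6c2 are neighbours with similar sequences at chr15:75044018-75112066, so reads could be shared between them. Ly6a, a further member of the cluster, was below without being far below, with 914 CPM in SNU-6621, against 3355, 2087 and 1859.8 CPM in the other lines.

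Mucins and their helper genes held 5 members far above among 12 tested, 2 of the 12 reaching 10 CPM only through SNU-6621. Muc4, a large membrane mucin, had 2114 CPM in SNU-6621, against 423, 115 and 216 CPM in the other lines. Muc5b, a gel-forming mucin of airway and bile duct glands, had 715 CPM in SNU-6621, against 55.3, 39.3 and 11 CPM in the other lines. Muc1 had 169.6 CPM in SNU-6621, against 39.5, 6.83 and 4.62 CPM in the other lines, and Muc20, which is annotated partly over Muc4 at chr16:32735886-32797435, had 156 CPM in SNU-6621, against 8.98, 1.04 and 3.15 CPM in the other lines. Clca1, a secreted protein of goblet cells, had 23 CPM in SNU-6621, against 0.175, 0.421 and 0.202 CPM in the other lines. Muc13, Agr2 and Fcgbp were below. Agr2, a chaperone of mucin folding, had 0.906 CPM in SNU-6621, against 0.978, 1.83 and 33 CPM in the other lines, so that the high library for Agr2 was SNU-6625.

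A short list of urothelial genes, also chosen after the values were seen, had 5 of 11 tested members above and 3 below, 3 of the 11 tested only through SNU-6621. Upk3a, a uroplakin of bladder epithelium, had 32.2 CPM in SNU-6621, against 0.524, 1.53 and 2.6 CPM in the other lines, and Pparg, described with the lipid genes, was far below. Of the 4 spalt factors 2 were tested, Sall1 and Sall3.

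**Figure D4:**
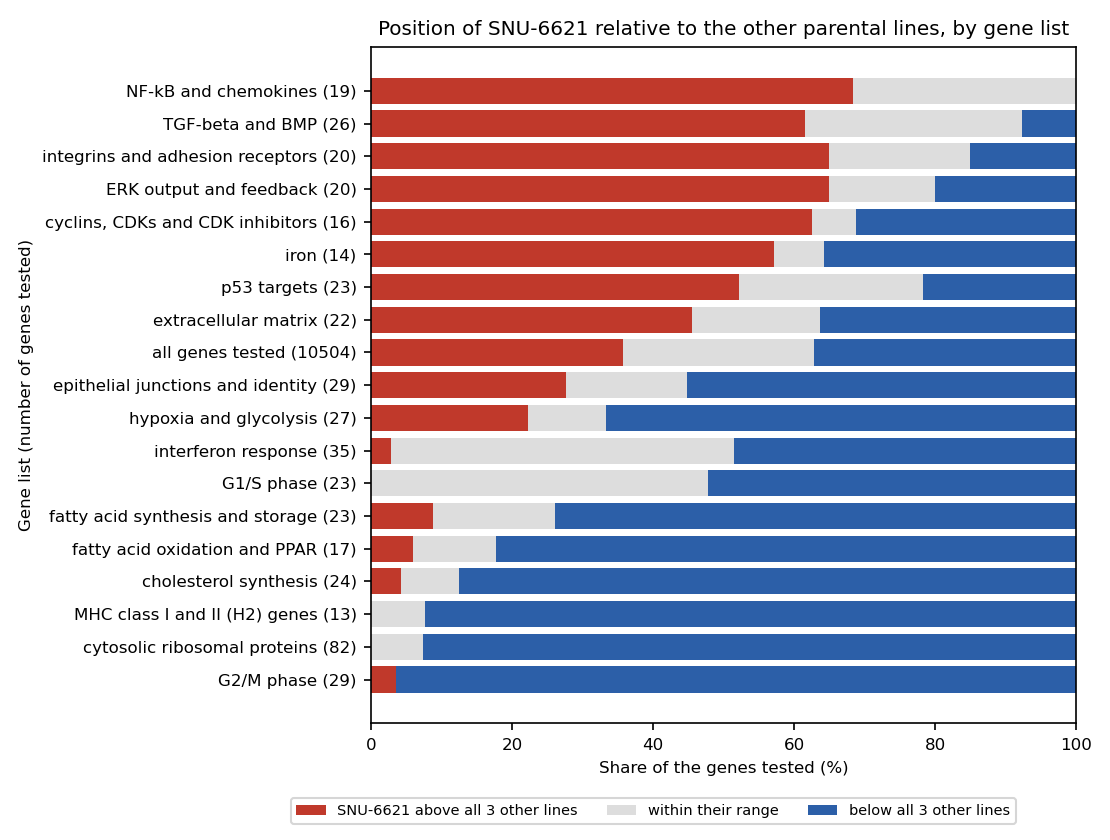
Share of the tested members of each gene list that lay above (red), within (grey) or below (blue) the range of SNU-6622, SNU-6624 and SNU-6625 in SNU-6621, in percent, with the same for all 10504 genes. The G2/M, cholesterol and ribosomal protein lists are mostly blue, against 35.7% above and 37.2% below over all genes. The NF-kB list and that of cyclins, CDKs and CDK inhibitors are mostly red.

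Lists can hold members that were tested only through SNU-6621. Among the lists described by a median, these numbered 13 in the Zfp family and 4 in the retinoid list. The adhesion, TGF-beta, YAP and NF-kB lists held 2 each. The biliary, junction, ERK, glycolysis, NRF2 and both fatty acid lists held 1 each, and the medians of all these lists are given as descriptions.

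A set of kidney tubule genes was listed after the values were seen, so that its counts are fixed in part by that choice. Its summed level was 875 CPM in SNU-6621, against 633 to 888 CPM in the other lines, and so within their range. Of its 50 genes 15 were tested, 8 of them only because SNU-6621 passed 10 CPM, and 8 were far above. Kif12, a kinesin of tubule and bile duct epithelium, had 67.2 CPM in SNU-6621, against 0, 0.185 and 0 CPM in the other lines. Slc34a2, a sodium-phosphate cotransporter, had 29.7 CPM in SNU-6621, against 0, 0 and 0.0808 CPM in the other lines. Slc15a2, the peptide transporter of proximal tubule, had 22.5 CPM in SNU-6621 and 0 CPM in each other line.

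Fxyd4, a regulator of the sodium pump in collecting duct, had 30 CPM in SNU-6621, against 0.175, 0.471 and 0 CPM in the other lines. Slc6a18, a brush border amino acid transporter, had 16 CPM in SNU-6621, against 0.0874, 0.303 and 0 CPM in the other lines. Tinag, a tubular basement membrane protein, had 12.3 CPM in SNU-6621, against 0.140, 0.0505 and 0.263 CPM in the other lines. Slc13a2, a dicarboxylate transporter that overlaps an antisense gene which was also far above, had 35.6 CPM in SNU-6621, against 1.62, 0.589 and 0.444 CPM in the other lines. Pax8, a transcription factor of kidney and thyroid, was present in all 4 lines, with 194 CPM in SNU-6621, against 86.3, 98.4 and 80.6 CPM in the other lines. Defining genes of tubule segments were at or near 0: Umod and Lrp2 had no count in any parental line, and Slc34a1 had 0.296 CPM in SNU-6621 and 0 CPM in each other line.

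Genes of motile cilia formed a further group, also listed after the values were seen. Motile cilia beat on airway, ependymal and oviduct cells, and their genes are switched on by the transcription factors Foxj1 and Rfx3. Foxj1, at chr11:116330704-116335499, had 172 CPM in SNU-6621, against 24.4, 30.8 and 5.57 CPM in the other lines, and Rfx3 had 16 CPM in SNU-6621, against 3.46, 1.58 and 1.88 CPM in the other lines. Of 101 genes of the list in the files 29 were tested, 19 of them only through SNU-6621, and 18 were far above. Since the filter favours genes high in SNU-6621, these counts describe the list and are not set against the background.

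Cfap69, a cilia and flagella associated protein, had 202 CPM in SNU-6621, against 5.36, 1.46 and 1.98 CPM in the other lines, and Cfap43 had 55.1 CPM in SNU-6621, against 3.3, 8.31 and 1.07 CPM in the other lines. Kif27, a kinesin related to those of the Hedgehog pathway, had 45 CPM in SNU-6621, against 3.48, 3.06 and 0.464 CPM in the other lines. Mapk15, a kinase of ciliogenesis, had 33.8 CPM in SNU-6621, against 3.91, 4.01 and 3.37 CPM in the other lines. SNU-6621 was the highest of the 4 lines for each. The summed level of the list was 1762 CPM in SNU-6621, against 1078 to 1353 CPM in the other lines. Tubb4b, Spef1 and Dnah7b were below instead, Dnah7b, an axonemal dynein heavy chain, with 13.4 CPM in SNU-6621, against 24.1, 19.7 and 33.1 CPM in the other lines. Several master genes of multiciliated cells and axonemal motor genes had no count in the 4 parental lines, among them Mcidas, Deup1, Cdc20b, Dnah5 and Dnah9, and 15 genes of the list had no count in any of the 4.

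Extracellular matrix genes lay on both sides, as did all genes. Of 44 listed genes 22 were tested, 3 of them only through SNU-6621. Above were 10 (45.5%) and below 8 (36.4%), against 35.7% and 37.2% of all genes. Far above were 5 and far below 3, where the shares over all genes were 2.58% and 1.06%. Besides Tnc and Ecm1, Ltbp2, a binding partner of latent TGF-beta, had 88 CPM in SNU-6621, against 2.13, 0.690 and 0.242 CPM in the other lines, and Lamb1, a laminin beta chain, had 192 CPM in SNU-6621, against 34.1, 14.2 and 23.5 CPM in the other lines. Col6a1, of the beaded collagen VI, had 13.2 CPM in SNU-6621, against 0.0349, 0.0505 and 0 CPM in the other lines.

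The basement membrane collagens Col4a1 and Col4a2, which share a bidirectional promoter region, were low together. Col4a1 had 24.9 CPM in SNU-6621, against 181, 130.0 and 191 CPM in the other lines and Col4a2 had 21.8 CPM in SNU-6621, against 153, 154 and 215 CPM in the other lines. Efemp1, a fibulin, had 33.2 CPM in SNU-6621, against 188, 211 and 179 CPM in the other lines. Lama3, a laminin chain of epithelial basement membrane, was above each other line instead, with 213 CPM in SNU-6621, against 70.1, 23.9 and 54.9 CPM in the other lines.

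Markers of stromal cells, which also make matrix, were measured beside these genes, and their part in the matrix values was not tested. Of 20 stellate cell and fibroblast markers 3 were tested, 2 of them only through SNU-6621, and all 3 were above, 2 of them far. In the same list 12 had no count in any parental line, among them Pdgfrb, Des, Col3a1, Acta2, Dcn and Lum. Col1a1 was at 0.0554 CPM in SNU-6621, against 0.472, 0.471 and 1.09 CPM in the other lines. The summed level of the list was 865 CPM in SNU-6621 against 155 to 206 CPM in the other lines, of which Ecm1 alone gave 811 CPM in SNU-6621, against 148, 203 and 159 CPM in the other lines. Without Ecm1 the sum was 54.6 CPM in SNU-6621, against 2.32 to 7.08 CPM in the other lines, and Pdpn and Lrat, a retinol acyltransferase of stellate cells, made up most of it in SNU-6621, with 31.5 and 22.9 CPM. Macrophage markers summed to 26.6 CPM in SNU-6621, against 24.5 to 60.3 CPM in the other lines. No lymphocyte or red blood cell marker reached 10 CPM in a parental line.

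Matrix proteases beyond Adamts1 were also unequal. Adam8, a surface metalloprotease, had 357 CPM in SNU-6621, against 15.7, 14.8 and 3.86 CPM in the other lines, and Plau, the urokinase plasminogen activator, had 319 CPM in SNU-6621, against 38.1, 26.9 and 16.3 CPM in the other lines. Adamts15 was far below, with 1.11 CPM in SNU-6621, against 11.3, 12.1 and 33.2 CPM in the other lines. Timp3, an inhibitor of metalloproteases, was far below as well, with 29.3 CPM in SNU-6621, against 177, 556 and 148 CPM in the other lines. Of the 14 tested members 7 were above (50%) and 4 below (28.6%), against 35.7% and 37.2% of all genes, and 1 of the 14 was tested only through SNU-6621.

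Adhesion receptors were above in 13 of 20 tested members (65%) and below in 3 (15%), against 35.7% and 37.2% of all genes. Their median log2 ratio was 0.31, against -0.02 over all genes. The neighbouring collagen-binding integrin genes Itga1 and Itga2, at chr13:114833081-115101964, were both far above. Itga1 had 15.5 CPM in SNU-6621 and 0 CPM in each other line, and Itga2 had 205 CPM in SNU-6621, against 30.3, 6.66 and 11.3 CPM in the other lines. Icam1, a ligand of leukocyte integrins, had 49.6 CPM in SNU-6621, against 1.24, 0.589 and 0.787 CPM in the other lines, and Nectin1 had 100.2 CPM in SNU-6621, against 5.59, 19.4 and 6.42 CPM in the other lines. Of 24 genes linked to epithelial-mesenchymal transition 8 were tested, 3 of them only through SNU-6621, with 5 above and 2 below, and the list summed to 1150.4 CPM in SNU-6621, against 948 to 1153 CPM in the other lines. Among them Akap12, a kinase scaffold, had 159 CPM in SNU-6621, against 0.734, 0.724 and 0.0808 CPM in the other lines, and Axl, a receptor tyrosine kinase, had 55.9 CPM in SNU-6621, against 1.54, 0.572 and 0 CPM in the other lines.

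Junction genes were below in 16 of 29 tested members (55.2%) and above in 8 (27.6%), against 37.2% and 35.7% of all genes. Their median log2 ratio was -0.29. Epcam, a pan-epithelial adhesion molecule, had 398 CPM in SNU-6621, against 608, 381 and 471 CPM in the other lines. Cldn6, a claudin of fetal epithelium, had 50.7 CPM in SNU-6621, against 130.2, 145 and 169.7 CPM in the other lines. Cldn1, a tight junction claudin, was the member far above, with 24.3 CPM in SNU-6621, against 0.472, 0.640 and 0 CPM in the other lines.

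Receptors that lenvatinib inhibits, those of VEGF and FGF with PDGFRA, KIT and RET, were examined in untreated cells. Of 16 listed receptors and co-receptors 8 were tested, 4 of them only through SNU-6621, 6 were above and none below. Flt1 encodes VEGF receptor 1 and had 38.5 CPM in SNU-6621, against 0.210, 0.202 and 0.0808 CPM in the other lines. Flt4, VEGF receptor 3, had 12.8 CPM in SNU-6621, against 0.996, 1.23 and 0.444 CPM in the other lines, and the co-receptor Nrp1 had 138 CPM in SNU-6621, against 4.37, 28.3 and 23 CPM in the other lines. Fgfr1 had 17.8 CPM in SNU-6621, against 0.227, 0 and 0 CPM in the other lines, and Fgfr2 had 31.6 CPM in SNU-6621, against 0.280, 0.353 and 0 CPM in the other lines. Ret, the receptor of glial-derived ligands, was within the range, with 12.6 CPM in SNU-6621, against 4.32, 13.6 and 6.91 CPM in the other lines.

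Flt1, Flt4, Nrp1, Fgfr1 and Fgfr2 were far above, and each was also highest in SNU-6621 when the 4 drug libraries were included. That position follows in part from being far above, as 266 of the 271 such genes were above all 7 other libraries. Flt1 had 0.295 CPM in resistant SNU-6624 and 3.87 CPM in resistant SNU-6625. Nrp1 came nearest, with 63.7 CPM in resistant SNU-6625. Endothelial cells carry Flt1 and Flt4, and their markers were measured beside them. Pecam1, Cdh5, Kdr, Emcn, Erg and Cldn5 had no count in any parental line. The summed level of 20 endothelial markers was 98 CPM in SNU-6621, against 28.2 to 64.2 CPM in the other lines, of which Flt1 and Esam, an adhesion molecule with 11.4 CPM in SNU-6621, against 0.646, 0.959 and 0.505 CPM in the other lines, made part.

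In a list of VEGF, FGF, PDGF, angiopoietin and related ligands, 2 of 9 tested members were above (22.2%) and 6 below (66.7%). The shares over all genes were 35.7% and 37.2%. These counts cannot be set against those of the receptors, since 4 of the 8 tested receptors passed 10 CPM only through SNU-6621. Among the ligands, 2 passed only through the other lines. Vegfa had 428 CPM in SNU-6621, against 513, 566 and 522 CPM in the other lines. Kitl, the ligand of KIT, was far below with 19.5 CPM in SNU-6621, against 202, 197 and 272 CPM in the other lines. Fgfbp1, a carrier of FGFs, had 79.8 CPM in SNU-6621, against 228, 283 and 235 CPM in the other lines. Among the EGFR family and its ligands, Nrg1, which binds ERBB3 and ERBB4, was far above with 63.2 CPM in SNU-6621, against 3.32, 3.7 and 1.07 CPM in the other lines, while Erbb2 had 142 CPM in SNU-6621, against 334, 222 and 255 CPM in the other lines and Ereg, epiregulin, had 36.2 CPM in SNU-6621, against 52, 159 and 158 CPM in the other lines.

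ERK output genes, which report on signalling downstream of these receptors, were above in 13 of 20 (65%) and below in 4 (20%). Over all genes the shares were 35.7% and 37.2%, and the median log2 ratio of the list was 0.45. Spry4, a feedback inhibitor, had 51.5 CPM in SNU-6621, against 19.6, 19.7 and 22.4 CPM in the other lines, and Spred3 had 15 CPM in SNU-6621, against 6.6, 5.49 and 6.08 CPM in the other lines. Dusp6, the ERK phosphatase, had 436 CPM in SNU-6621, against 249.7, 203 and 291 CPM in the other lines. No member was far outside, and Myc had 88.7 CPM in SNU-6621, against 143, 159 and 159 CPM in the other lines.

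Of 16 tested Wnt and stem cell genes 6 were above and 6 below, 37.5% each, against 35.7% above and 37.2% below over all genes. Of the 16, 2 were tested only through SNU-6621. The ligand Wnt5a, which mainly signals without beta-catenin, had 133 CPM in SNU-6621, against 1.45, 2.93 and 0.384 CPM in the other lines, and Wnt10a had 13.8 CPM in SNU-6621, against 2.46, 2.51 and 0.666 CPM in the other lines. Axin2 and Lgr5, both known as targets of beta-catenin, were far below. Axin2 had 2.29 CPM in SNU-6621, against 19, 45 and 60.1 CPM in the other lines, and Lgr5, the R-spondin receptor of stem cells, had 1.66 CPM in SNU-6621, against 10.1, 17 and 72.3 CPM in the other lines. Rnf43, a ligase that removes Wnt receptors, had 46.7 CPM in SNU-6621, against 85.8, 84 and 136 CPM in the other lines. Notum, a Wnt deacylase, had 5.45 CPM in SNU-6621, against 14.1, 81.9 and 5.77 CPM in the other lines and so was high in a single line, SNU-6624.

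**Figure D5:**
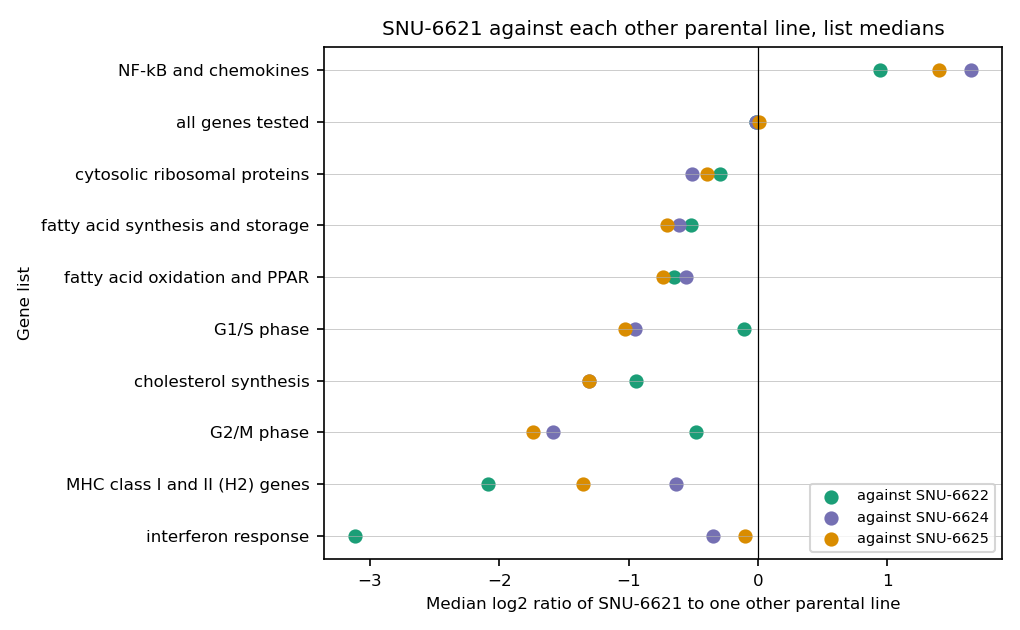
Median log2 ratio of SNU-6621 to each of SNU-6622, SNU-6624 and SNU-6625 (1 point per line) over the tested members of 10 gene lists. Points of cholesterol synthesis, from -0.94 to -1.31, lie together on the negative side, whereas those of the interferon list spread from -3.12 against SNU-6622 to -0.10 against SNU-6625.

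Of 26 tested TGF-beta and BMP genes 16 were above (61.5%) and 2 below (7.69%), against 35.7% and 37.2% of all genes. The median log2 ratio was 0.31. Id4, an inhibitor of helix-loop-helix factors, was far above with 19.3 CPM in SNU-6621, against 0, 0.202 and 0.485 CPM in the other lines, and Bmp7 had 78.6 CPM in SNU-6621, against 6.8, 28.3 and 18.9 CPM in the other lines. In the Notch list 7 of 10 were above (70%) and 3 below (30%). The receptor Notch1 had 247 CPM in SNU-6621, against 36.3, 85.5 and 67.7 CPM in the other lines. Its ligand Jag1 had 213 CPM in SNU-6621, against 61.8, 86.8 and 127 CPM in the other lines. For Hedgehog, the ligand Ihh had 34.7 CPM in SNU-6621, against 8.51, 6.9 and 11.4 CPM in the other lines and the transducer Smo had 65 CPM in SNU-6621, against 24.3, 34.2 and 27.8 CPM in the other lines. Of 23 tested YAP target and regeneration genes 11 were above (47.8%) and 9 below (39.1%), both shares higher than those of all genes. Far above were 2 and far below 1, and the median log2 ratio was 0.32. The YAP target Ccn2, a matricellular protein, was the member far below, with 20.4 CPM in SNU-6621, against 150.2, 127 and 219 CPM in the other lines. Runx2, a factor of bone and invasive epithelium, was far below with 6.14 CPM in SNU-6621, against 28.7, 31 and 34.5 CPM in the other lines, and Tbx2, a T-box repressor, had 74.1 CPM in SNU-6621, against 1.61, 19.3 and 5.05 CPM in the other lines.

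Inflammatory genes driven by NF-kB were higher in SNU-6621 than in each other line in 13 of 19 tested members, 2 of the 19 tested only through SNU-6621, and none was below. The median log2 ratio was 1.30, with 0.94 against SNU-6622, 1.65 against SNU-6624 and 1.40 against SNU-6625. Cxcl5, a neutrophil attractant, had 582 CPM in SNU-6621, against 71.8, 13.4 and 26.4 CPM in the other lines. Ccl20, which attracts CCR6-bearing lymphocytes, had 102 CPM in SNU-6621, against 7.95, 2.84 and 1.74 CPM in the other lines. Csf1, the growth factor of macrophages, had 119 CPM in SNU-6621, against 10.8, 5.3 and 5.11 CPM in the other lines.

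Il1a, an alarmin cytokine, had 259 CPM in SNU-6621, against 89.2, 32.6 and 23.9 CPM in the other lines, above each other line but not far. Tnf, with 52.2 CPM in SNU-6621, against 76.4, 8.7 and 20.3 CPM in the other lines, and the inhibitor Nfkbia, with 203 CPM in SNU-6621, against 274, 188 and 200.2 CPM in the other lines, were within the range. C3, the central complement component, had 437 CPM in SNU-6621, against 6.55, 4.33 and 1.47 CPM in the other lines. Saa1, an acute phase protein, was far below with 10.6 CPM in SNU-6621, against 304, 49 and 50 CPM in the other lines. SNU-6622 was the next highest line for Cxcl5, Ccl20, Csf1 and Il1a.

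Interferon-stimulated genes were low relative to SNU-6622 mainly. Of 35 tested members 1 was above (2.86%) and 17 below (48.6%), against 35.7% and 37.2% of all genes. The median log2 ratio of -1.86 came with -3.12 against SNU-6622, -0.35 against SNU-6624 and -0.10 against SNU-6625. Without SNU-6622 the median was -0.15. Oas2, an RNA sensor enzyme, was far below each of them, with 5.41 CPM in SNU-6621, against 503, 47.8 and 50.3 CPM in the other lines. Mx1, an antiviral GTPase, had 1.68 CPM in SNU-6621, against 85.6, 7.54 and 6.1 CPM in the other lines. Isg15, a ubiquitin-like modifier, had 3.16 CPM in SNU-6621, against 63.6, 6.03 and 3.88 CPM in the other lines.

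Class I and II histocompatibility genes were below in 12 of 13 tested members, with a median log2 ratio of -1.52 and values of -2.09 against SNU-6622, -0.63 against SNU-6624 and -1.35 against SNU-6625. H2-K1, a classical class I heavy chain, had 316 CPM in SNU-6621, against 1343, 350.1 and 544 CPM in the other lines, and H2-D1 had 307 CPM in SNU-6621, against 1221, 446 and 482 CPM in the other lines. H2-Q4, a nonclassical chain, had 14.4 CPM in SNU-6621, against 103, 29.4 and 36.7 CPM in the other lines. The H2-Q genes are close copies of each other, and reads could be shared among them.

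Nearly all mitosis genes tested were lowest in SNU-6621 among the parental lines. Of 29 tested G2/M genes 28 were below and 1 above, with a median log2 ratio of -1.38, and it was -0.48 against SNU-6622, -1.58 against SNU-6624 and -1.74 against SNU-6625. Cdc20, an activator of the anaphase complex, had 11.6 CPM in SNU-6621, against 32, 59.9 and 65 CPM in the other lines. Mki67, the proliferation antigen, had 53.5 CPM in SNU-6621, against 74.2, 215 and 231 CPM in the other lines, and Top2a, the mitotic topoisomerase, had 57.5 CPM in SNU-6621, against 70.7, 140.2 and 161 CPM in the other lines. In the drug libraries Cdc20 had 9.05 CPM in resistant SNU-6624, 0.789 CPM in resistant SNU-6625, 5.12 CPM in lenvatinib SNU-6624 and 3.32 CPM in lenvatinib SNU-6625, all below SNU-6621. Kif23, a kinesin of the midbody, was the member above, with 80.9 CPM in SNU-6621, against 48.9, 79 and 67.5 CPM in the other lines.

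Replication genes were nearer to those of SNU-6622. Of 23 tested G1/S genes none was above and 12 were below, with medians of -0.10 against SNU-6622, -0.95 against SNU-6624 and -1.02 against SNU-6625. Rrm2, a ribonucleotide reductase subunit, had 25.6 CPM in SNU-6621, against 43.2, 106 and 95.8 CPM in the other lines, whereas Mcm2, of the replicative helicase, had 38.3 CPM in SNU-6621, against 38.2, 59.3 and 47.3 CPM in the other lines, nearly the value of SNU-6622.

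Cyclins, CDKs and CDK inhibitors were above in 10 of 16 (62.5%) and below in 5 (31.25%), against 35.7% and 37.2% of all genes. Cdkn2a, which encodes p16 and p19Arf, had 53.6 CPM in SNU-6621, against 4.23, 16 and 9.17 CPM in the other lines, a 3.36-fold distance to the nearest line. Cdkn1a, p21, had 346 CPM in SNU-6621, against 154, 236 and 134 CPM in the other lines, and Mdm2, a p53 target and ligase of p53, had 269.6 CPM in SNU-6621, against 128, 145 and 118 CPM in the other lines. Cdkn1b, p27, was below instead, with 64 CPM in SNU-6621, against 120.3, 110.3 and 101 CPM in the other lines. The D cyclins were above. Ccnd2 had 821 CPM in SNU-6621, against 230.0, 441 and 263 CPM in the other lines, Ccnd3 had 113 CPM in SNU-6621, against 49.1, 50.9 and 50.6 CPM in the other lines and Ccnd1 had 1366 CPM in SNU-6621, against 735, 1069.9 and 693 CPM in the other lines. Of 23 p53 targets 12 were above (52.2%) and 5 below (21.7%), with a median log2 ratio of 0.27. Against the mitosis list, Mybl2, a cell cycle transcription factor named after its values were seen, was far above with 102 CPM in SNU-6621, against 7.98, 17.4 and 16.1 CPM in the other lines.

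Lipid synthesis genes were mostly below. Cholesterol is made from acetyl-CoA by a pathway under SREBP2, and 21 of its 24 genes were below each other line and 1 above. The median log2 ratio was -1.18, with -0.94 against SNU-6622, -1.30 against SNU-6624 and -1.31 against SNU-6625. Pmvk, phosphomevalonate kinase, had 17.3 CPM in SNU-6621, against 56.6, 58.1 and 54.5 CPM in the other lines, and Lss, which closes the sterol rings, had 62 CPM in SNU-6621, against 167, 234 and 258 CPM in the other lines.

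Fatty acid synthesis and storage genes were below in 17 of 23 and above in 2, with a median log2 ratio of -0.65. Acss2, which makes acetyl-CoA from acetate, was far below with 23.7 CPM in SNU-6621, against 122, 137 and 134 CPM in the other lines, and Fasn, fatty acid synthase, had 341 CPM in SNU-6621, against 484, 606 and 596 CPM in the other lines. The members above were the desaturases of polyunsaturated fatty acids: Fads1 had 144 CPM in SNU-6621, against 2.03, 4.38 and 7.29 CPM in the other lines, and its neighbour Fads2 had 232 CPM in SNU-6621, against 36.3, 56.5 and 76.2 CPM in the other lines. Fatty acid oxidation and PPAR genes were below in 14 of 17 and above in 1. Pparg, the nuclear receptor of lipid storage, had 18.6 CPM in SNU-6621, against 119, 92.4 and 97.8 CPM in the other lines, and its target Fabp5, a fatty acid carrier, had 5.01 CPM in SNU-6621, against 132, 213 and 129 CPM in the other lines.

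Glycolysis and hypoxia genes were below in 18 of 27 (66.7%) and above in 6 (22.2%), against 37.2% and 35.7% of all genes. Their median log2 ratio was -0.44. Pkm had 1918 CPM in SNU-6621, against 3438, 3711 and 3446 CPM in the other lines, Pfkp had 149 CPM in SNU-6621, against 453, 439.8 and 450.3 CPM in the other lines, and Egln3, an oxygen sensor, had 394 CPM in SNU-6621, against 924, 1222 and 1070.0 CPM in the other lines. Hk2, hexokinase 2, was above with 249.8 CPM in SNU-6621, against 122, 101 and 91.3 CPM in the other lines. Cytosolic ribosomal protein genes were below in 76 of 82 and above in none, with a median log2 ratio of -0.40 and -0.29, -0.51 and -0.39 against SNU-6622, SNU-6624 and SNU-6625. Rpl11 had 273 CPM in SNU-6621, against 431, 521 and 500.3 CPM in the other lines. Zfp zinc finger genes had the opposite sign, with 135 of 211 above and 29 below and a median of 0.26.

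Iron genes were above in 8 of 14 tested members (57.1%) and below in 5 (35.7%), against 35.7% and 37.2% of all genes. Of the 14, 1 was tested only through SNU-6621. Cp, ceruloplasmin, which oxidises iron for export, had 532 CPM in SNU-6621, against 18.8, 3.3 and 5.47 CPM in the other lines. Steap2, a metalloreductase, had 398 CPM in SNU-6621, against 34.9, 20.4 and 31.3 CPM in the other lines, and its neighbour Steap1 had 41.7 CPM in SNU-6621, against 3.49, 2.07 and 3.17 CPM in the other lines. Lcn2, lipocalin 2, which binds bacterial siderophores, had 418 CPM in SNU-6621, against 50.9, 7.19 and 4.89 CPM in the other lines. Tfrc, the transferrin receptor, was far below with 33.6 CPM in SNU-6621, against 155, 246 and 255 CPM in the other lines.

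Of 16 tested retinoid genes 6 were above (37.5%) and 5 below (31.25%), against 35.7% and 37.2% of all genes, with a median log2 ratio of 0.10. The members named next are those far above. Aldh1a3, which makes retinoic acid from retinal, had 81 CPM in SNU-6621, against 0.192, 0.471 and 0 CPM in the other lines. Crabp2, which carries retinoic acid to the nucleus, had 44.5 CPM in SNU-6621, against 1.29, 2.84 and 0.444 CPM in the other lines, and Aldh1a2 had 13 CPM in SNU-6621, against 2.25, 0.286 and 2.02 CPM in the other lines. Of the 16 members 4 were tested only through SNU-6621. Rbp2, an intestinal carrier of retinol that is not in the list, was far below with 5.25 CPM in SNU-6621, against 58.5, 49.2 and 153 CPM in the other lines. The alcohol dehydrogenase genes Adh7, Adh1 and Adh6a lie next to each other at chr3:138198064-138331134, were all far above, and were picked after their values were seen. Adh7 had 21.5 CPM in SNU-6621, against 0.297, 0.606 and 0.263 CPM in the other lines, Adh1 had 35.4 CPM in SNU-6621, against 4.54, 0.555 and 4.87 CPM in the other lines, and Adh6a had 65.8 CPM in SNU-6621, against 8.86, 1.03 and 6.6 CPM in the other lines.

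Glutathione genes split within the antioxidant programme of NRF2, where 9 of 30 members were above (30%) and 17 below (56.7%). Over all genes the shares were 35.7% and 37.2%, and the median log2 ratio of the list was -0.31. Gsr, glutathione reductase, had 1209 CPM in SNU-6621, against 169, 165 and 188 CPM in the other lines. Gstm1 had 728 CPM in SNU-6621, against 85.2, 161 and 100.2 CPM in the other lines and Gstm2 had 432 CPM in SNU-6621, against 46.1, 67.5 and 45 CPM in the other lines, neighbours of Gstm3 at chr3:107963696-108017973 with similar sequences and a nearby pseudogene that may share reads. Gstt2, of the Theta class, had 111 CPM in SNU-6621, against 0.943, 1.04 and 0.787 CPM in the other lines. Over the Mu, Theta and Alpha classes, listed after the values were seen, 7 of 12 tested genes were above and 3 below. Of the 12, 2 were tested only through SNU-6621. Akr1b8, an aldose reductase-like enzyme and NRF2 target, was far below with 33.3 CPM in SNU-6621, against 215, 158 and 235 CPM in the other lines. Of other detoxifying enzymes, Ugt1a1, the bilirubin glucuronosyltransferase, had 21.4 CPM in SNU-6621, against 382, 276 and 303 CPM in the other lines, and Cyp1b1, a target of the aryl hydrocarbon receptor, had 49 CPM in SNU-6621, against 343, 485 and 485 CPM in the other lines. Sult1d1, a sulfotransferase, was far above with 346 CPM in SNU-6621, against 4.23, 2.12 and 7.45 CPM in the other lines. It was the only 1 of 4 tested sulfotransferases above, and was tested only through SNU-6621, while 3 were below each other line.

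The 4 drug libraries come from SNU-6624 and SNU-6625 and share those lines with the parental libraries. Of the 271 genes far above, 266 were also above all 7 other libraries (15.6% of all 10504 genes were), and 195 were at least 4-fold above all 7. The other 5 were reached only in resistant SNU-6625. The 271 genes were chosen as far above parental lines that are among the 7, so these counts are fixed in part by that choice. Itga2 had 205 CPM in SNU-6621 and 211 CPM in resistant SNU-6625. Slc43a2, an amino acid transporter, had 125 CPM in SNU-6621 and 136 CPM in resistant SNU-6625. Bdkrb2, a bradykinin receptor, had 23.5 CPM in SNU-6621 and 33.6 CPM in resistant SNU-6625, and Sprr2h had 53.4 CPM in SNU-6621 and 59.3 CPM in resistant SNU-6625.

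In resistant SNU-6625, 22 of the 271 genes had at least 10 CPM and at least 4 times the level of each of parental SNU-6622, SNU-6624 and SNU-6625, against 1 gene in resistant SNU-6624, 3 in lenvatinib SNU-6625 and 0 in lenvatinib SNU-6624. Over all 10504 genes the same limits were met by 0.904% in resistant SNU-6625, 0.0666% in resistant SNU-6624, 0.143% in lenvatinib SNU-6625 and 0.162% in lenvatinib SNU-6624. Hmga2, a chromatin protein of fetal and tumour cells, had 96.2 CPM in SNU-6621 and 72.3 CPM in resistant SNU-6625, against 5.71, 17.4 and 5.27 CPM in the other parental lines. Lcn2 had 267 CPM and Csf1 76.8 CPM in resistant SNU-6625. Hspb1, a small heat shock protein whose reads may be shared with a pseudogene, had 219.6 CPM in SNU-6621 and 184 CPM in resistant SNU-6625, against 1.36, 7.96 and 11.4 CPM in the other parental lines.

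Of the 111 genes far below, 81 were below all 7 (17.3% of all genes were) and 35 at least 4-fold below all 7. Here too the choice of genes fixes these counts in part, since the other parental lines are among the 7. In 26 genes lenvatinib SNU-6624 was at or below the level of SNU-6621, as were lenvatinib SNU-6625 in 21, resistant SNU-6625 in 8 and resistant SNU-6624 in 1. Shares over all genes were not counted for single drug libraries. Both lenvatinib libraries were at or below SNU-6621 in 18 of the 111 genes, against 40.6% of all genes. Both resistant libraries were so in 1 of the 111, against 32.7% of all genes. Choosing genes that are low in SNU-6621 affects these comparisons as well. Acacb had 0.869 CPM in SNU-6621, against 5.84 CPM in resistant SNU-6625, 6.25 CPM in lenvatinib SNU-6624 and 8.81 CPM in lenvatinib SNU-6625, all lower than in the other parental lines, whereas resistant SNU-6624 had 52.9 CPM. Sall1 had 0 CPM in SNU-6621, against 43.2 and 27 CPM in the resistant and 62.6 and 24 CPM after lenvatinib, for SNU-6624 and SNU-6625 in turn.

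Positions of the genes were not used to choose them. The median log2 ratio by autosome and X chromosome, over 9667 genes with a mean of at least 10 CPM in the parental libraries, ran from -0.13 on chromosome 13 to 0.08 on chromosome 7. Against single lines some medians were larger. Chromosome 2 had -0.198 against SNU-6625, but 0.002 against both SNU-6622 and SNU-6624. Chromosome 7 had 0.126 against SNU-6624. The 4 genes of the Y chromosome had a median of 0.40, with 2.29 against SNU-6622, -1.05 against SNU-6624 and 9.30 against SNU-6625, and the 16 mitochondrial genes had 0.10. Within 100 kb of each other lay 41 of the genes far above, in 19 groups, and 12 of those far below, in 6 groups. The same count was not made over all genes tested, so whether these numbers are unusual was not tested. Besides the Adh, Gstm, Itga and mucin groups these included Cfap69, Steap2 and Steap1 at chr5:5579278-5749317 and Col4a1 and Col4a2 at chr8:11198423-11449287.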

How the data were processed

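RNA-seq counts per gene of 8 mouse organoid libraries were used, 4 of them parental and 1 per line. The deposited files hold whole-number read counts for 45777 genes, per the file headers, with no normalization by the authors. Per the labels' protocols, Trizol and a column kit gave the RNA, and a stranded mRNA kit the libraries. Build mm10, the aligners HISAT2 2.1.0 and Bowtie2 2.3.4.1, the assembler StringTie 2.1.3b, and for read quality Trimmomatic 0.38 and FastQC 0.11.7 are listed per the submitters' processing notes. The counting method was not given in the sources used here, nor was its strand setting. Overlapping genes and close copies may share reads.

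Counts were scaled to CPM with TMM factors of edgeR 4.0.16 (R 4.3.3) over all 8 libraries, and values under 3 counts were raised to 3 counts of their library for fold changes. The log2 ratio is SNU-6621 over the mean of the other 3 lines. Tested means at least 10 CPM in 1 or more parental libraries. Far above and far below need a 4-fold distance to the nearest line at 10 CPM. No test was run, and with 1 library per line nothing measures the spread within a line. Every pair of libraries differed in its values. The counting steps were tested on simulated data. Names and positions come from the files and from a RefSeq table of GRCm38.p6, matched by gene identifier for 45679 genes, and promoters from RefSeq for the same build.

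The members, lists and limits were chosen with earlier results of these data known. The genes named are the 15 far above and 15 far below with the largest fold, provisional symbols left out, up to 4 far members of each list or family (otherwise the 2 furthest outside), the on or off genes with the highest level, sex-linked genes, and 2 genes on either side of each 4-fold limit. Some genes that this rule or a count covers are not reported here. Other genes named beside them, defining markers among them, were chosen after their values were seen, as were the lists of kidney tubule, urothelial, motile cilium, Ly6, spalt and glutathione transferase genes. Alternatives were other scalings (library totals, 4 libraries, DESeq2 1.42.0 size factors, totals without the most abundant genes), other level and fold limits, another floor, a pseudocount, each line left out and all 7 other libraries.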

Additional observations from a re-analysis of the deposited data

How the results depend on the processing

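The counts of genes far above and far below followed the limits that define them. At a minimum of 1 CPM they were 636 and 218, at a fold limit of 2 they were 578 and 372, and at a fold limit of 8 they were 166 and 50. Against all 7 other libraries, with the 10 CPM minimum in each of them, 26 genes were far below. Other scalings gave 270 to 286 genes far above and 105 to 111 far below. Leaving out each other line in turn gave 304 to 325 far above and 125 to 159 far below. The median log2 ratio of the interferon list was -0.15 without SNU-6622. Of 157 named genes, chosen as far outside, none changed direction under the alternatives. They left the far range in 56 cases against all 7 other libraries, in 55 at a fold limit of 8, in 40 at a minimum of 20 CPM and in 11 with a pseudocount. With the most downstream start of each gene, chosen after seeing the data, TATAAA was in 12.6% of windows of genes far above and 11.8% of those far below, against 6.53% of all, and the median CG counts were 10 and 8. Chromosome medians had their lowest value between -0.14 and -0.12 and their highest between 0.07 and 0.12 when a line was left out. No paired analysis was possible because SNU-6621 shares its line number with no other library and the results come from no test. A single library of SNU-6621 limits every statement to that library.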

Other observations

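Genes of axon guidance, which also guide epithelial and vascular cells, were above in 13 of 31 tested members (41.9%) and below in 14 (45.2%). Over all genes the shares were 35.7% and 37.2%, and 3 of the 31 were tested only through SNU-6621. Robo2, a Slit receptor, had 19.4 CPM in SNU-6621, against 1.97, 0.135 and 0.263 CPM in the other lines, and Sema6a, a membrane semaphorin, had 36.9 CPM in SNU-6621, against 1.85, 0.404 and 1.84 CPM in the other lines. Ephb2, an ephrin receptor of intestinal crypts, was far below with 15 CPM in SNU-6621, against 180.1, 218 and 209.7 CPM in the other lines. Slit2, a secreted ligand of Robo receptors, had 21.3 CPM in SNU-6621, against 76.3, 72.2 and 41.8 CPM in the other lines. Among the 4 parental lines SNU-6621 was the highest for Robo2 and the lowest for Slit2.

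Solute carriers were above in 55 of 179 tested members (30.7%) and below in 77 (43.0%), against 35.7% and 37.2% of all genes. Far above were 9 and far below 2, where the shares over all genes were 2.58% and 1.06%. Of the 179, 10 reached 10 CPM only through SNU-6621. Slc1a1, a glutamate transporter, had 26.4 CPM in SNU-6621, against 0.175, 0.101 and 0 CPM in the other lines, and Slc28a3, a nucleoside transporter, had 103 CPM in SNU-6621, against 13.2, 2.47 and 0.485 CPM in the other lines. Slc35c1, the Golgi carrier of GDP-fucose, was far below with 52.9 CPM in SNU-6621, against 327, 407 and 475 CPM in the other lines. Cytochrome P450 genes were above in 5 of 21 tested members (23.8%), 1 of the 21 tested only through SNU-6621, and below in 13 (61.9%). Cyp2s1, an extrahepatic P450, had 105 CPM in SNU-6621, against 361, 428 and 435 CPM in the other lines. No Hox gene reached 10 CPM in a parental line. Ngfr, the low-affinity neurotrophin receptor, had 14.8 CPM in SNU-6621, against 0, 0.236 and 0 CPM in the other lines.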
